A study of Mus musculus with 7 samples.

Results

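The transcripts of the upstream stimulatory factors *Usf1* and *Usf2* and of the 3 subunits of the DNA-dependent protein kinase (DNA-PK), *Prkdc*, *Xrcc5* and *Xrcc6*, were followed in primary hepatocytes that lack WDR6. Members were the rows of the count table that carry these symbols, and all 5 were found among 14819 rows, each with at least 330 reads in every library. Sequencing covered 4 hepatocyte libraries of WT mice and 3 of WDR6-WKO mice, with no treatment in either group. The cells came from the livers of male mice by collagenase perfusion and were kept overnight in William's E medium with fetal bovine serum. WDR6-WKO mice lack *Wdr6* in the whole body after a CRISPR deletion, so the loss was not limited to hepatocytes, and WT mice carried no deletion. Purchased C57BL/6J mice were 7 weeks old unless otherwise specified, and no separate age was found for the hepatocyte donors. The number of mice behind each library is not given in the sources used here, and p-values measure the spread between these libraries.

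USF1 and USF2 are basic helix-loop-helix leucine-zipper proteins that bind E-box sequences as homodimers and heterodimers, and in liver they act at promoters of genes for fatty acid synthesis, lipoproteins and glucose use. DNA-PK is best known for joining broken DNA ends, in which the Ku heterodimer (Ku80, encoded by *Xrcc5*, and Ku70, encoded by *Xrcc6*) loads the catalytic subunit (DNA-PKcs, encoded by *Prkdc*) onto the ends. In fed or insulin-treated liver, DNA-PK dephosphorylated by protein phosphatase 1 is known to phosphorylate USF1, which then activates *Fasn*, the gene for fatty acid synthase. The phosphorylation steps act on proteins already made, while the last step is transcription of *Fasn*. In a separate experiment in mouse liver, the study reported that USF1 protein rose after WDR6 was overexpressed. The rise was smaller with a mutant subunit of protein phosphatase 1. Counts of RNA measure the supply of transcript and do not measure phosphorylation, protein or binding.

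Promoters are shown first because the E-box is the sequence through which USF factors act. RefSeq promoter windows (GRCm38.p6, from 250 bases before to 50 bases after a start) were matched by symbol for 3 of the 5 members, *Usf1*, *Xrcc5* and *Xrcc6*. The palindrome CACGTG, which reads the same on both strands, was found in 7.15% of the 32851 windows. Among the members it was found in the window of *Xrcc5*, and not in the windows of *Usf1* or *Xrcc6*. Among 11 liver genes described in the field as bound or regulated by USF factors, all but *Apoc3* with a window, it was found in the windows of *Apoa5*, which encodes a regulator of triglyceride lipolysis, and *Abca1*, which encodes a cholesterol exporter. The 30 bases around each match are given 5′ to 3′ on the strand of the gene, with the motif in capitals.
*Xrcc5*, chr1:72307211-72307240, plus strand: tgatgtgtgggaCACGTGgagatcagaggg
*Apoa5*, chr9:46268514-46268543, plus strand: tctttgaccctcCACGTGgtgtttgctcag
*Abca1*, chr4:53160025-53160054, minus strand: gggccatgtctcCACGTGctttctgctgag
The window of *Fasn* has no CACGTG and holds the wider E-box form CANNTG once in the 150 bases before its start, as CAATTG within CCAATTGG, where it overlaps CCAAT box letters on both strands. That form is common, being found in 47.7% of all windows over the same 150 bases.
*Fasn*, chr11:120824548-120824697, minus strand, the CANNTG match in capitals: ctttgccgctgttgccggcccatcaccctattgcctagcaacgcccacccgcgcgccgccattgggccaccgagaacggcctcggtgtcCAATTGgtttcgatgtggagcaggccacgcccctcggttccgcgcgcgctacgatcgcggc

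Libraries held 17816913 to 23668940 counted reads, and the biological coefficient of variation was 7.40%. *Wdr6* fell from 44.0 ± 4.03 CPM (counts scaled to a common library total with edgeR's TMM method; s.d., n = 4) in WT to 2.38 ± 0.179 (n = 3) in WDR6-WKO, with a log2 fold change of -4.20 (SE 0.11, adjusted p = 3.44e-12 in edgeR's quasi-likelihood test), so every library fitted its label. WDR6-WKO replicate 3 stood apart from the rest of its group. Over 9342 genes with a mean of at least 10 CPM, the root mean square log2 difference was 0.133 between WDR6-WKO replicates 1 and 2, but 0.220 and 0.242 between each of these and replicate 3, against 0.133 to 0.153 within WT. Replicate 3 differed by 0.239 to 0.267 from the WT libraries, beside 0.247 to 0.263 for replicate 1 and 0.279 to 0.304 for replicate 2. The fold changes of the members and of *Fasn*, the ratios and the counts of the 5 related gene lists are therefore also given without replicate 3. Other results are given with all 7 libraries unless an omission is stated. Of 14779 genes tested, 1897 had an adjusted p under 0.05 (called below), or 12.8%, with 983 higher and 914 lower in WDR6-WKO. Without replicate 3, 4233 of 14796 genes, or 28.6%, were called.

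None of the 5 members was called in WDR6-WKO against WT by edgeR, against 12.8% of all genes, with 0 higher against 6.65% and 0 lower against 6.18%. The study's thresholds, 0.35 or more on the log2 scale in either direction with an unadjusted p under 0.05, also took in 0 of 5, against 10.4% of all genes. DESeq2 and limma-voom also called 0 of 5, beside 2000 of 14819 and 1895 of 14779 genes. In edgeR 0 of 5 had an unadjusted p under 0.05, against 28.1% of all genes. The CPM ranges of both groups overlapped for every member, while 23.5% of all genes had ranges that did not overlap. Fold changes of the members lay between -0.11 and 0.14 on the log2 scale, with a median of -0.04 beside 0.01 for all genes. In bulk RNA, fewer cells of a type and less RNA per cell cannot be told apart.

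**Figure D1:**
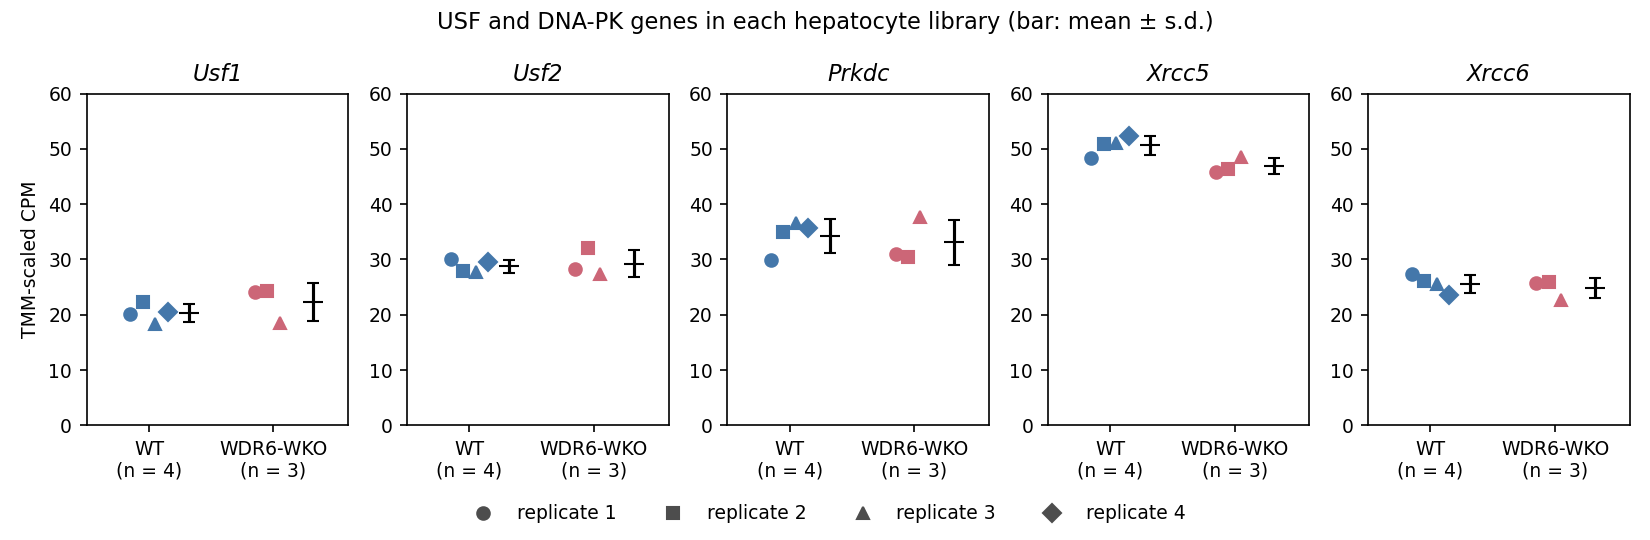
TMM-scaled CPM of each member in each library, with WT in blue and WDR6-WKO in red, the marker shape giving the replicate number and the black bar the mean ± s.d. (n = 4 and n = 3). The groups overlap in all 5 panels, and WDR6-WKO replicate 3 (triangle) is the lowest of its group for *Usf1* and the highest for *Prkdc*.

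*Usf1*, which encodes the USF factor that DNA-PK phosphorylates, lies at chr1:171411313-171419142 on the plus strand (GRCm38). Its level was 20.2, 22.4, 18.2 and 20.5 CPM in the WT libraries, in the order of their numbers as for all genes that follow, and 24.1, 24.4 and 18.4 CPM in the WDR6-WKO libraries. WDR6-WKO replicates 1 and 2 were above every WT library, and replicate 3 lay just above the lowest WT library. The log2 fold change was 0.14 (SE 0.10, 95% interval -0.08 to 0.36, adjusted p = 0.412 in edgeR), and the exact two-sided permutation test of log2 CPM over all 35 arrangements of the sample labels gave p = 0.371. The smallest p that this exact test allows is 0.0286. Without WDR6-WKO replicate 3, *Usf1* was called, with a log2 fold change of 0.25 (95% interval 0.08 to 0.42, adjusted p = 0.0241 in edgeR). That fit held only replicates 1 and 2 of WDR6-WKO, and replicate 3 was singled out by its distance in these same data. *Usf1* was the only member whose call depended on a library, and at 28.6% the share of all genes called in that comparison was also larger.

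*Usf2* encodes the dimer partner of USF1 and lies at chr7:30945248-30956803 on the minus strand. Its level was 30.05, 27.9, 27.8 and 29.5 CPM in WT and 28.3, 32.0 and 27.4 CPM in WDR6-WKO. The highest and the lowest of the 7 values were both in WDR6-WKO libraries, so the WT range lay inside the WDR6-WKO range. The log2 fold change was 0.02 (SE 0.08, 95% interval -0.14 to 0.18, adjusted p = 0.880 in edgeR; exact permutation p = 0.8). It was 0.06 without WDR6-WKO replicate 3 (adjusted p = 0.567 in edgeR).

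*Prkdc* encodes the catalytic subunit of DNA-PK, a very large kinase, and lies at chr16:15637866-15842235 on the plus strand, with 86 exons and a transcript of 12647 bases. Its level was 29.8, 34.9, 36.6 and 35.7 CPM in WT and 31.0, 30.4 and 37.8 CPM in WDR6-WKO. WT replicate 1 was the lowest library and WDR6-WKO replicate 3 the highest. The log2 fold change was -0.05 (SE 0.09, 95% interval -0.24 to 0.14, adjusted p = 0.750 in edgeR; exact permutation p = 0.686). It was -0.16 when WDR6-WKO replicate 3 was left out (unadjusted p = 0.0435, adjusted p = 0.117 in edgeR).

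*Xrcc5* encodes Ku80 and lies at chr1:72307421-72394952 on the plus strand, and its promoter window is the one with CACGTG above. Its level was 48.2, 51.0, 51.0 and 52.3 CPM in WT and 45.9, 46.4 and 48.5 CPM in WDR6-WKO. All 3 WDR6-WKO libraries were below the WT mean of 50.6 ± 1.69 CPM (s.d., n = 4), but replicate 3 was above the lowest WT library, so the ranges overlapped narrowly. The log2 fold change was -0.11 (SE 0.06, 95% interval -0.23 to 0.01, adjusted p = 0.238 in edgeR; exact permutation p = 0.0857). Leaving out WDR6-WKO replicate 3 gave -0.14 (unadjusted p = 0.0270, adjusted p = 0.0810 in edgeR), still not called.

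*Xrcc6* encodes Ku70, which forms the Ku ring with Ku80, and lies at chr15:81987835-82040085 on the plus strand. Its level was 27.4, 26.0, 25.5 and 23.5 CPM in WT and 25.8, 25.9 and 22.7 CPM in WDR6-WKO. WDR6-WKO replicates 1 and 2 lay within the WT range, and replicate 3 was the lowest of all. The log2 fold change was -0.04 (SE 0.08, 95% interval -0.21 to 0.13, adjusted p = 0.781 in edgeR; exact permutation p = 0.543). Leaving it out gave 0.01 (adjusted p = 0.927 in edgeR).

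A p that misses the threshold does not show equal levels, and the intervals give the size of change that these libraries leave possible. In percent of the WT level, the 95% interval ran from -5.42% to 28.0% for *Usf1* and from -9.01% to 13.6% for *Usf2*. For the DNA-PK subunits it ran from -15.6% to 9.88% for *Prkdc*, from -15.0% to 1.03% for *Xrcc5* and from -13.8% to 9.26% for *Xrcc6*. With its own standard error and the largest p among called genes, 0.00642, a member would have been called at an absolute log2 fold change of 0.18 for *Xrcc5*, 0.24 for *Usf2*, 0.25 for *Xrcc6*, 0.28 for *Prkdc* and 0.32 for *Usf1*. By the standard error of its fold change *Usf1* was the least precisely measured, and its coefficient of variation was 8.30% in WT and 15.1% in WDR6-WKO. *Xrcc5* had the smallest standard error, with coefficients of variation of 3.34% and 3.00%, and *Prkdc* had 8.82% and 12.3%.

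**Figure D2:**
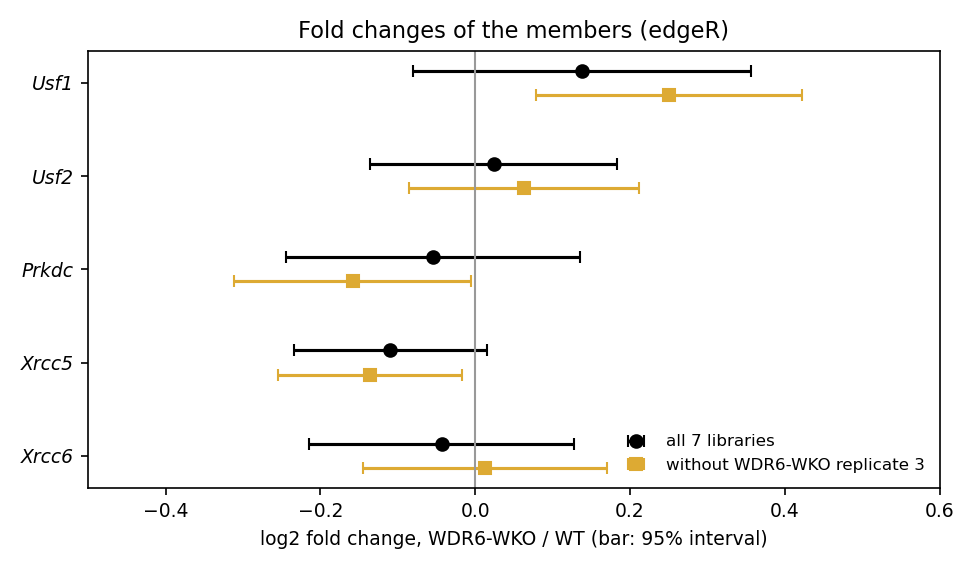
The log2 fold change of each member, WDR6-WKO over WT, with its 95% interval from edgeR, in all 7 libraries (black circles) and without WDR6-WKO replicate 3 (yellow squares). All 5 intervals from the 7 libraries include 0, and without that library the *Usf1* interval runs from 0.08 to 0.42, while those of *Prkdc* and *Xrcc5* also lie below 0 although neither gene was called after adjustment.

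Levels of different genes were compared per kilobase, as CPM divided by the mean length of the annotated protein-coding transcripts. On that scale *Usf2* was highest in WT with 24.98 ± 0.999 CPM per kilobase (s.d., n = 4), followed by *Xrcc5* with 19.8 ± 0.662 and *Xrcc6* with 17.97 ± 1.13. *Usf1* had 12.3 ± 1.02 and *Prkdc* 2.71 ± 0.239 CPM per kilobase. The neighbours *Xrcc5* and *Xrcc6* had overlapping ranges, 18.9 to 20.5 and 16.5 to 19.2, and the other neighbours in this order did not. With the longest transcript as the length, *Usf2* came to 11.9, *Usf1* to 9.39 and *Xrcc6* to 7.77 CPM per kilobase, so *Xrcc5* was highest and *Prkdc* remained lowest. DNA-PKcs transcript was thus the scarcest of the 5 per length on both measures.

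A ratio of counts within a library does not depend on the scaling between libraries, so the balance of the USF pair and of the DNA-PK subunits was compared that way. The ratio of *Usf1* to *Usf2* was 0.673, 0.803, 0.657 and 0.697 in WT and 0.852, 0.761 and 0.672 in WDR6-WKO. The WDR6-WKO values spread over most of the WT range and beyond its top, with a difference of 0.10 in mean log2 ratio (exact permutation p = 0.4). The ratio of *Xrcc5* to *Xrcc6* was 1.76, 1.96, 1.997 and 2.22 in WT and 1.78, 1.79 and 2.14 in WDR6-WKO. All 3 WDR6-WKO values lay within the WT range, with a difference of -0.06 (exact permutation p = 0.543). The ratio of *Prkdc* to the geometric mean of the Ku genes was 0.821, 0.959, 1.01 and 1.02 in WT. In WDR6-WKO it was 0.902, 0.877 and 1.14, and no ratio was divided by transcript length. WDR6-WKO replicate 3 was the highest and WT replicate 1 the lowest, with a difference of 0.02 (exact permutation p = 0.857). Adjusted over the 3 ratios, the exact permutation p-values were 0.814, 0.814 and 0.857. Leaving out WDR6-WKO replicate 3 moved the differences to 0.19, -0.15 and -0.09 (exact permutation p = 0.2, 0.333 and 0.467), and the last also changed sign without WT replicate 1, at -0.05.

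**Figure D3:**
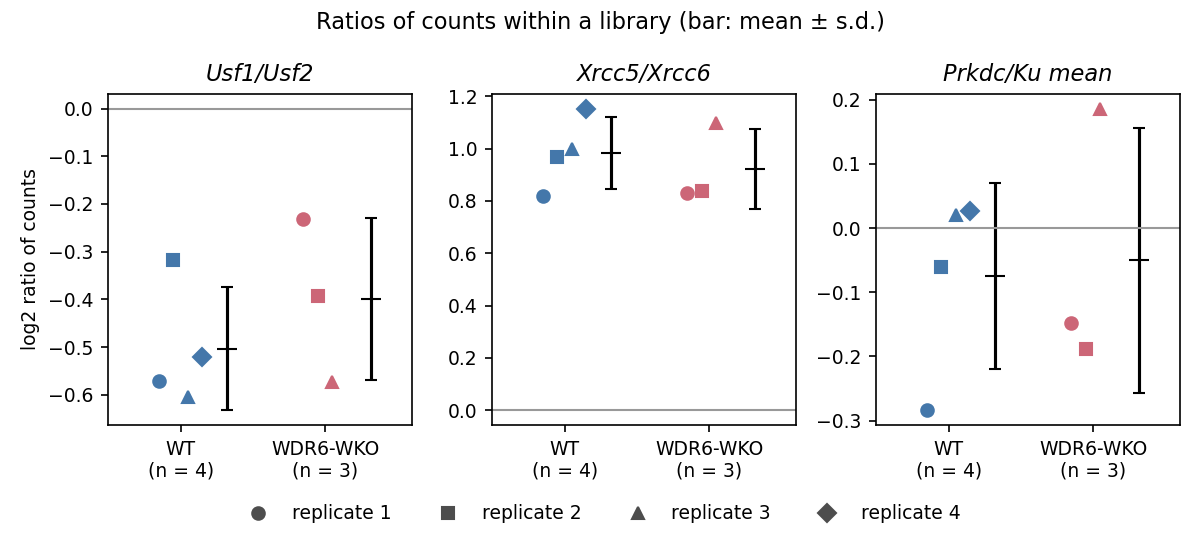
Log2 ratios of counts within each library, with WT in blue, WDR6-WKO in red, the replicate number as marker shape and the mean ± s.d. as a black bar. The vertical scales of the 3 panels differ. The groups overlap for every ratio, with mean differences of 0.10, -0.06 and 0.02.

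Libraries differed in how long and short transcripts were represented, which bears on *Prkdc* with its 12647 bases. Among 14687 genes with an annotated length, the median log2 deviation of 664 genes of at least 6000 bases, minus that of 4581 genes under 1500 bases, was -0.01, 0.02, 0.11 and 0.11 in the WT libraries and -0.11, -0.21 and 0.07 in the WDR6-WKO libraries. WDR6-WKO replicates 1 and 2 thus had the lowest values and replicate 3 lay among the WT libraries. The deviation of *Prkdc* was -0.17, 0.06, 0.12 and 0.09 in WT and -0.12, -0.14 and 0.17 in WDR6-WKO. The deviation of *Usf1* was -0.06, 0.09, -0.21 and -0.04 in WT and 0.19, 0.21 and -0.19 in WDR6-WKO. Length and GC content of each gene were also used as offsets in the edgeR fit, an alternative added after the data were seen. The log2 fold change was then 0.08 for *Prkdc* (adjusted p = 0.445) and 0.10 for *Usf1* (adjusted p = 0.448). In that fit 0 of 5 members were called, beside 2732 of 14687 genes. The part of the length trend in the values of these genes without replicate 3 was not tested.

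**Figure D4:**
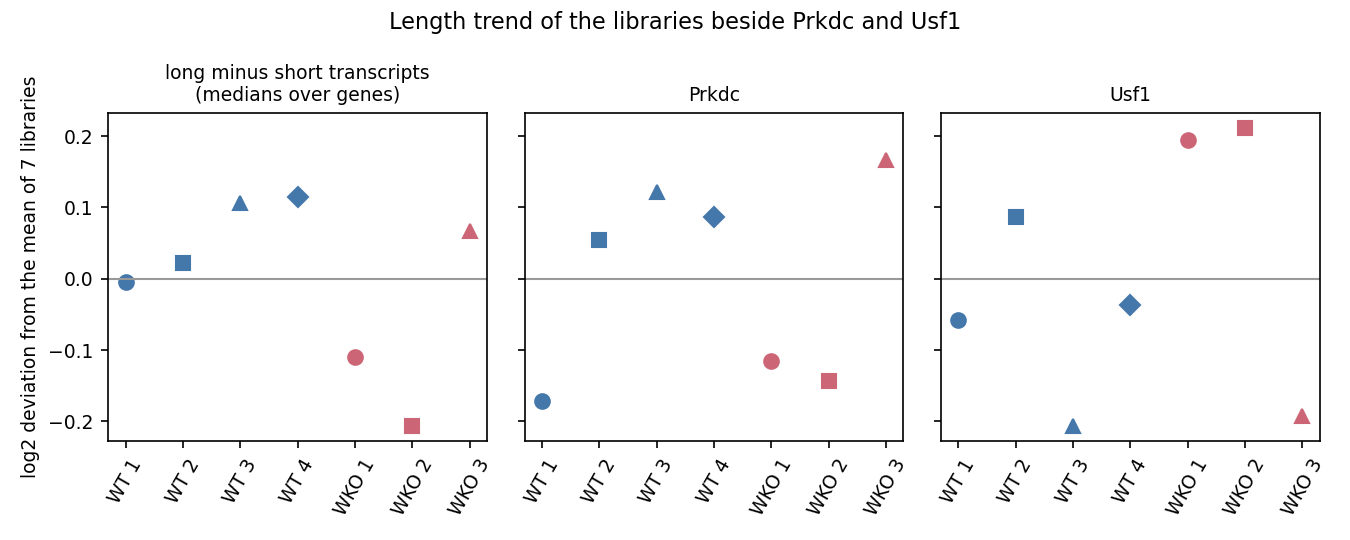
Deviation of each library from the mean of the 7 libraries on the log2 scale, for long minus short transcripts (left), *Prkdc* (middle) and *Usf1* (right), with WT in blue and WDR6-WKO (WKO) in red. WDR6-WKO replicates 1 and 2 are lowest for long transcripts, at -0.11 and -0.21, and highest for *Usf1*, at 0.19 and 0.21.

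Reads of some members can be shared with other genes. Of the 50-base stretches of the longest transcript, 22.7% in *Usf1* also occur in *Tstd1* or *Gm12345*, 13.8% in *Usf2* occur in *Gm17077*, *Gm44662* or *Usf2-ps1*, and 9.15% in *Xrcc6* occur in *Desi1*. *Prkdc* and *Xrcc5* share 0%. *Tstd1*, which overlaps the end of *Usf1* by 200 exon bases, was at 1.37 ± 0.352 CPM in WT (s.d., n = 4), far below *Usf1* (adjusted p = 0.830 in edgeR). *Desi1* lies on the opposite strand with 344 exon bases in common with *Xrcc6*. It was at 48.2 ± 4.17 CPM in WT (s.d., n = 4), above *Xrcc6* at 25.6 CPM. The log2 fold change of *Desi1* was 0.07 (adjusted p = 0.585 in edgeR). Whether counting used strand is not given in the sources used here, so reads from these overlaps cannot be told apart. *Mcm4*, which encodes a subunit of the replicative helicase and starts 466 bases from *Prkdc* in the opposite direction, had a log2 fold change of -0.06 (adjusted p = 0.565 in edgeR).

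Genes whose levels followed each member most closely over the 7 libraries were taken from 9341 genes with a mean of at least 10 CPM, as a description with no test. Pearson's r of log2 CPM with *Usf1* was 0.992 for *Dnase2a* and 0.984 for *Ranbp3*, and with *Usf2* it was 0.970 for *Dap3* and 0.948 for *Ndufc2*. With *Prkdc* it was 0.989 for *Ptpn4* and 0.980 for *Atad1*, with *Xrcc5* 0.988 for *Klhl9* and 0.987 for *Fam45a*, and with *Xrcc6* 0.985 for *Cit* and 0.980 for *Vps52*. High values were common at this number of libraries, since r was over 0.9 for 27 genes with *Usf2* and for 285 with *Xrcc5*. All these points share the libraries, their depth and the length trend above.

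Among 11 other factors of DNA end joining, 1 rose and 0 fell, or 9.09% called beside 12.8% of all genes, with a median log2 fold change of 0.10. Leaving out WDR6-WKO replicate 3 also gave 1 of 11, beside 28.6% of all genes. *Aptx*, which encodes an enzyme that removes AMP from stalled ligation ends, was at 6.25, 6.39, 5.16 and 6.23 CPM in WT and 8.48, 9.40 and 8.10 CPM in WDR6-WKO. Every WDR6-WKO library was above every WT library, with a log2 fold change of 0.53 (SE 0.12, adjusted p = 0.0104 in edgeR), and the call was lost without WDR6-WKO replicate 2 (adjusted p = 0.0633). The ligase gene *Lig4* had a log2 fold change of -0.02 (adjusted p = 0.927 in edgeR) and its scaffold *Xrcc4* of -0.16 (adjusted p = 0.420).

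Among 11 genes of the other PI3K-related kinases and of the chaperones that assemble this kinase family, 1 rose and 0 fell, or 9.09% called, again beside 12.8% of all genes, with a median of 0.04. *Ruvbl1*, which encodes an ATPase of the R2TP chaperone, was at 44.6, 42.2, 41.5 and 43.6 CPM in WT and 51.9, 61.1 and 45.8 CPM in WDR6-WKO. The ranges did not overlap, with replicate 3 nearest to WT, and the log2 fold change was 0.30 (SE 0.08, adjusted p = 0.0233 in edgeR). That call was lost when any library but WT replicate 1 or WDR6-WKO replicate 3 was left out, with a log2 fold change of 0.19 to 0.39 over the 7 omissions. The damage kinase genes *Atm* and *Atr* had log2 fold changes of -0.07 (adjusted p = 0.620 in edgeR) and -0.11 (adjusted p = 0.383). Without WDR6-WKO replicate 3, 5 of 11 were called, 2 higher and 3 lower, beside 28.6% of all genes (14.5% higher and 14.1% lower).

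Among 19 other E-box factors, mostly of the bHLH-zipper class and with *Usf3*, 1 rose and 4 fell, or 26.3% called beside 12.8% of all genes (6.65% higher and 6.18% lower), with a median of -0.07. The list was chosen with earlier results of these data known, so the share is a description. *Myc*, a growth regulator, was at 175.2, 186, 166 and 171 CPM in WT and 202.0, 221 and 222 CPM in WDR6-WKO. The groups did not overlap, and the log2 fold change was 0.30 (SE 0.05, adjusted p = 0.00156 in edgeR). *Mlxipl*, which encodes the glucose-responsive lipogenic factor ChREBP, was at 161, 149, 144 and 143 CPM in WT and 132, 121 and 127 CPM in WDR6-WKO. All 3 WDR6-WKO libraries lay below WT, with a log2 fold change of -0.24 (SE 0.06, adjusted p = 0.0103 in edgeR), and the call was lost without WDR6-WKO replicate 2 (adjusted p = 0.0552). *Srebf1*, which encodes the insulin-responsive lipogenic factor SREBP-1, fell by 0.21 on the log2 scale (adjusted p = 0.0445 in edgeR). The MAX-binding repressor genes *Mxi1* and *Mxd4* fell by 0.25 (adjusted p = 0.0425 in edgeR) and 0.26 (adjusted p = 0.0356). Each of these 3 calls was lost when any of the 4 WT libraries was left out, and also without WDR6-WKO replicate 2 for *Srebf1* and without replicate 1 or 2 for *Mxi1*. *Usf3*, a separate gene with a USF name, had a log2 fold change of -0.14 (adjusted p = 0.331 in edgeR). When WDR6-WKO replicate 3 was left out, 10 of 19 were called, 3 higher and 7 lower, beside the 28.6% of all genes. The count was 2 of 19 when any WT library or WDR6-WKO replicate 2 was left out. Over all genes, 1032 to 1401 were called in those fits, against 1897 with all 7 libraries. With the study's thresholds it was 0 of 19, beside 10.4% of all genes.

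Among the genes of 15 proteins described with USF1 and DNA-PK at lipogenic promoters, 0 rose and 1 fell in RNA. That was 6.67% called beside 12.8% of all genes, with a median of -0.05. *Top2b*, which encodes the topoisomerase that makes promoter breaks, was at 161, 163, 165 and 172 CPM in WT and 136, 136 and 152 CPM in WDR6-WKO. Its ranges did not overlap, and the log2 fold change was -0.22 (SE 0.05, adjusted p = 0.0122 in edgeR), a call lost without WT replicate 4, WDR6-WKO replicate 1 or WDR6-WKO replicate 2. With length and GC offsets it was -0.14 (adjusted p = 0.0159 in edgeR). The genes of the catalytic subunits of protein phosphatase 1 had log2 fold changes of 0.08 for *Ppp1ca* (adjusted p = 0.403 in edgeR), -0.05 for *Ppp1cb* (adjusted p = 0.648) and 0.00 for *Ppp1cc* (adjusted p = 0.997). *Kat2b*, for the acetyltransferase P/CAF that acts on USF1, had -0.17 (adjusted p = 0.0866 in edgeR). Without WDR6-WKO replicate 3, 5 of 15 or 33.3% were called, 1 higher and 4 lower, near the 28.6% of all genes.

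Among the 11 liver genes described as USF targets, 3 rose and 3 fell, or 54.5% called beside 12.8% of all genes, with a median of 0.00. This list, like that of the E-box factors, was chosen with earlier results of these data known. Its share is therefore a description, and a link to USF activity was not tested. The count was 3 of 11 without WT replicate 1, 3 or 4 or WDR6-WKO replicate 2, where 1032 to 1401 genes were called in all. With the study's thresholds it was also 3 of 11, beside 10.4% of all genes. *Hamp*, which encodes the iron hormone hepcidin and starts 1216 bases past the end of *Usf2* on the same strand, was at 14.1, 17.8, 20.5 and 21.2 CPM in WT and 49.7, 41.8 and 34.1 CPM in WDR6-WKO. All WDR6-WKO libraries lay far above WT, with a log2 fold change of 1.19 (SE 0.15, adjusted p = 0.000594 in edgeR). *Apoa2*, for an apolipoprotein, rose by 0.26 (adjusted p = 0.0352 in edgeR) with overlapping ranges, and *Pklr*, for liver pyruvate kinase, rose by 0.16 (adjusted p = 0.0473). Neither call held up against leaving out libraries, since that of *Apoa2* was lost when any of 5 of the 7 libraries was left out and that of *Pklr* with any of 6, WT replicates 1, 3 and 4 and WDR6-WKO replicates 1 and 2 in both cases and WT replicate 2 for *Pklr*. The *Pklr* call was also lost with DESeq2 (adjusted p = 0.0504) and with median-of-ratios size factors in edgeR (adjusted p = 0.0545), and with length and GC offsets *Apoa2* came to 0.13 (adjusted p = 0.0517 in edgeR). Without WDR6-WKO replicate 2 *Apoa2* was at 0.16 (adjusted p = 0.184 in edgeR).

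*Gpam*, for the first enzyme of glycerolipid synthesis, was at 141, 140, 149 and 142 CPM in WT and 116, 104 and 116 CPM in WDR6-WKO. Its groups were clearly apart, with a log2 fold change of -0.35 (SE 0.05, adjusted p = 0.000509 in edgeR). *Abca1*, whose CACGTG is printed above, was at 243, 233, 265 and 271 CPM in WT and 194, 190 and 215 CPM in WDR6-WKO. It fell in all 3 WDR6-WKO libraries, with a log2 fold change of -0.34 (SE 0.06, adjusted p = 0.00159 in edgeR). *Srebf1*, also on this list, was the remaining gene that fell.

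*Fasn* was at 368, 370.4, 368 and 366 CPM in WT and 354, 329 and 355 CPM in WDR6-WKO. All 3 WDR6-WKO libraries lay below the narrow WT range, but with a log2 fold change of -0.09 (SE 0.04, adjusted p = 0.211 in edgeR) it was not called. It was -0.11 without WDR6-WKO replicate 3 (adjusted p = 0.0375 in edgeR), -0.054 without replicate 2 (adjusted p = 0.570) and -0.057 with length and GC offsets (adjusted p = 0.411). *Acaca*, for the enzyme that supplies malonyl-CoA to fatty acid synthase, had 0.00 (adjusted p = 0.978), and *Apoa5*, with its CACGTG, had 0.18 (adjusted p = 0.410). Without replicate 3, 7 of the 11 were called, 3 higher and 4 lower, beside 28.6% of all genes.

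**Figure D5:**
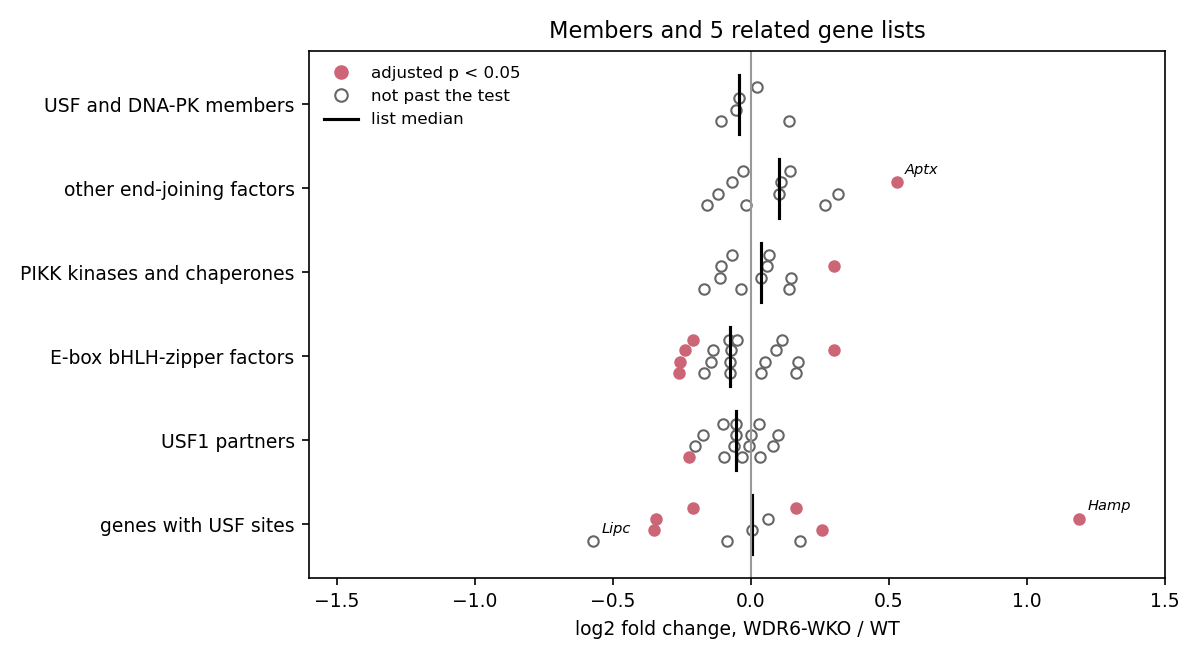
Log2 fold changes, WDR6-WKO over WT, of the 5 members and of the genes on 5 related lists, 1 circle per gene, filled where the adjusted p in edgeR is under 0.05, with the list median as a black line. The members lie between -0.11 and 0.14 with no filled circle, while *Hamp* (1.19, filled) and *Lipc* (-0.57, not filled) lie farthest out.

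The E-box motif itself was set against the response of all genes with a promoter window. Of 1218 tested genes with CACGTG in a window, 157 or 12.9% were called, with 86 higher and 71 lower and a median log2 fold change of 0.02. Of 9351 genes without it, 1290 or 13.8% were called, with a median of 0.00. These shares are a description, and no difference between them was tested.

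Markers of Kupffer cells and cholangiocytes, other cells of the liver, were also examined. Log2 fold changes were positive for 11 of 12 Kupffer cell markers and for 3 of 5 tested cholangiocyte markers. Counts of called markers stand beside 12.8% of all genes (6.65% higher and 6.18% lower). Summed over 12 Kupffer cell markers, the level was 790 to 862 CPM in WT and 910.0 to 1112 CPM in WDR6-WKO, with replicate 3 the lowest of its group, and 4 of 12 were called, all higher. The called markers were *Fcgr1* (log2 fold change 0.75), *Lyz2* (0.64), *C1qc* (0.48) and *C1qb* (0.30). The median of the 12 was 0.28, and 9 of them, *Timd4* included, had an unadjusted p under 0.05 in edgeR, against 28.1% of all genes. Only *Timd4*, of resident Kupffer cells, was negative, at -0.48 with groups that did not overlap (adjusted p = 0.0880 in edgeR). Of 6 cholangiocyte markers, 5 were tested and 2 were called higher, with sums of 3068 to 3360 CPM in WT and 3714 to 4306 in WDR6-WKO, mostly from *Spp1*. Those called were *Spp1* and *Sox9*, while the keratin genes *Krt19* and *Krt7* had log2 fold changes of -0.05 (adjusted p = 0.783 in edgeR) and -0.10 (adjusted p = 0.784). The 8 hepatocyte markers summed to 10615 to 12612 CPM in WT and 9407 to 10135 in WDR6-WKO, mostly from *Alb*. They were thus abundant in every library as the label says, but 4 of 8 were called, all lower. Those were *Cps1* (log2 fold change -0.69), *Apoa1* (-0.69), *Fgb* (-0.45) and *Hnf4a* (-0.27), while *Alb* at -0.18 was not called. The median of the 8 was -0.31, and only *Serpina1c* was positive, at 0.24 (adjusted p = 0.0740 in edgeR). An unadjusted p under 0.05 in edgeR was found for 6 of them, *Serpina1c* included. None of 8 sinusoidal endothelial markers was called by edgeR, with 0 at an unadjusted p under 0.05, and 1 of 8 stellate cell markers rose and 1 fell. Of 8 lymphocyte and neutrophil markers only *Ptprc* was tested, and it was not called (adjusted p = 0.873 in edgeR). No tested marker was at 0 in any library. The part of these cells in the values of the members and lists was not tested.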

How the data were processed

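Hepatocyte RNA of both genotypes (4 WT and 3 WDR6-WKO libraries) was sequenced by the authors, who aligned reads to mm10 with Bowtie2 2.2.3 and deposited raw counts per gene symbol, not normalized. The counting tool, annotation and strand setting are not given in the sources used here. The smallest row total was 50, and 21 rows hold dates in place of symbols and were not named.

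The members and gene lists were chosen with earlier results of these data known, and 1 gene first listed among the USF targets is not reported here for a reason unrelated to its values, so counts for that list cover the remaining 11. Counts were scaled (TMM), filtered by expression and tested with edgeR 4.0.16 (robust quasi-likelihood, R 4.3.3), and p-values were adjusted by Benjamini-Hochberg over 14779 genes. Intervals came from the F statistic. Ratios and single genes had exact two-sided permutation tests, with 0.5 added to counts in ratios. The fit was tested on simulated data in which few genes changed, where unadjusted p-values of unchanged genes were calibrated but the false share of adjusted calls was above the nominal level, so calls close to the threshold are less firm. Within a group Spearman's correlation was 0.992 to 0.996 and chi-square per gene 3.80 to 15.9, so no library was a copy of another. Alternatives were no filter, a minimum of 10 counts in each sample, unscaled library sizes, median-of-ratios size factors, DESeq2 1.42.0, limma-voom (limma 3.58.1), a replicate block, each replicate left out, the study's thresholds (absolute log2 fold change of at least 0.35, p under 0.05) and, added later, length and GC offsets. Named genes were the members, *Wdr6*, *Fasn*, called genes of each list, the 2 genes most like each member and overlapping or head-to-head neighbours. Others named were chosen after their values were seen. Gene positions and lengths came from GENCODE M21 (GRCm38), the build of the alignment.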

Additional observations from a re-analysis of the deposited data

Results flagged for a closer look

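In WT, *Aptx* was at 5.16 CPM in replicate 3 and at 6.23 to 6.39 CPM in the other 3 libraries, a gap large for the range of 4 values. It was the only such case among 23 groups examined, and chance gives about 1 in 20.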

How the results depend on the processing

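Of 75 refits of the members, 1 gave a call, *Usf1* without WDR6-WKO replicate 3. Leaving out each library in turn, the log2 fold change ran from 0.072 to 0.25 for *Usf1*, from -0.047 to 0.063 for *Usf2*, from -0.16 to 0.00059 for *Prkdc*, from -0.14 to -0.09 for *Xrcc5* and from -0.083 to 0.013 for *Xrcc6*, with the sign changed without WDR6-WKO replicate 2 for *Usf2* and *Prkdc* and without replicate 3 for *Xrcc6*. The difference in log2 ratio ran from 0.02 to 0.19 for *Usf1*/*Usf2*, from -0.15 to -0.01 for *Xrcc5*/*Xrcc6* and from -0.094 to 0.093 for *Prkdc* over Ku, where it was -0.05 without WT replicate 1 and -0.094 without WDR6-WKO replicate 3. The number called ran from 0 to 1 for the members and for end joining, 0 to 5 for the kinases and for the USF1 partners, 2 to 10 for E-box factors, 3 to 7 for USF targets and 1032 to 4233 over all genes (570 to 2150 higher, 462 to 2083 lower), the highest values being without WDR6-WKO replicate 3 for all genes. With length and GC offsets *Usf2* was -0.042 and *Prkdc* 0.076. End joining and the USF1 partners then had 2 of 11 and 2 of 15 called, beside 2732 of 14687 genes in all. Library sizes alone called 3 E-box factors, *Myc*, *Mlxipl* and 1 not called with TMM scaling, with 1908 genes called in all. That setting lost *Srebf1* (adjusted p = 0.0813 in edgeR), *Mxi1* (0.0672) and *Mxd4* (0.0607). It raised the share of higher genes among all calls from 51.8% to 63.5%. DESeq2 and limma-voom each called 2 of the kinase and chaperone genes, beside 2000 and 1895 genes in all. The study's thresholds called 0 of the kinase and chaperone genes, 0 E-box factors, 0 partners and 3 USF targets, beside 10.4% of all genes. They called 583 lower genes, with 61.9% of calls higher. Per kilobase of the longest transcript, the WT level was 9.39 for *Usf1*, 11.9 for *Usf2* and 7.77 for *Xrcc6*, by construction of the length. The cause of the other changes was not tested. Between deviations of libraries with equal replicate numbers r was 0.03, 0.02 and 0.04, inside the -0.12 to 0.12 of unequal numbers. These few values cannot decide whether the libraries were paired. With a replicate block the log2 fold change was 0.14 for *Usf1*, 0.03 for *Usf2*, -0.03 for *Prkdc*, -0.09 for *Xrcc5* and -0.09 for *Xrcc6*, none of them called. That fit called 1762 genes in all and lost the calls of *Mxi1* (adjusted p = 0.0726 in edgeR) and *Pklr* (0.0838). All 210 refits of the named list genes kept their direction. The members had 330 reads or more in every library, while *Tstd1* had few and carries larger counting errors.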

Other observations

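A gene next to *Xrcc6* passed the test while the members did not, and the neighbours here are named after their values were seen. *Snu13*, which encodes a small ribonucleoprotein subunit and ends 440 bases from *Xrcc6*, was at 66.5 ± 2.32 CPM in WT (s.d., n = 4) and 76.0 ± 1.98 in WDR6-WKO (n = 3), with a log2 fold change of 0.19 (adjusted p = 0.0295 in edgeR). *Lsr*, which encodes a lipolysis-stimulated lipoprotein receptor and lies 967 bases from *Usf2*, had a log2 fold change of -0.05 (adjusted p = 0.503 in edgeR).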
